A study of Danio rerio with 3 samples.

Results

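The p53 stress target genes are a set of genes that the transcription factor p53 switches on when cells sense damaged DNA, stalled ribosome assembly or an active oncogene. They were chosen by name: mdm2, cdkn1a, ccng1, bbc3, baxa, gadd45aa, gadd45ba, sesn1 and phlda3, with a name in capitals or without its paralog letter also counted. These 9 names matched 10 of the 27882 gene identifiers in the deposited tables. The name table gives 6 of these names in human style (CCNG1, BAX, GADD45A, GADD45B, SESN1, PHLDA3), which does not tell zebrafish paralogs apart, and 2 identifiers share the name GADD45B, so both were kept and are told apart by identifier. All 10 had at least 50 reads in every library.

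The 3 libraries hold messenger RNA of whole AB zebrafish larvae aged 3 days post-fertilization, with 1 library a group. Control larvae were wild type. HRAS larvae carried Tg(fli1ep:GAL4FF)ubs3, which expresses the transcription factor GAL4 from an endothelial fli1 promoter, together with Tg(UAS:eGFP-HRASV12)io006, which encodes eGFP joined to the oncogenic form of human HRAS. NICD larvae carried the same driver with tg(UAS:NICD)kca3, which encodes the intracellular part of a Notch receptor, its signalling form. The control is not named as carrying GAL4, so what the driver does alone cannot be told apart from what a transgene does. The promoter directs the transgenes to the endothelial lineage, whereas the RNA came from all tissues, so a change in few cells is diluted, and more cells of a type cannot be told apart from more RNA per cell. Without replicates, p-values cannot be had, and each comparison describes these libraries alone.

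In unstressed cells the p53 protein is kept scarce by Mdm2, a ubiquitin ligase that marks it for degradation, and p53 in turn activates mdm2, which closes a feedback loop. Stress that frees p53 from Mdm2 turns on genes that halt the cell cycle, limit growth signals or start apoptosis. In vertebrate cells oncogenic RAS is known as a trigger of this response, and in zebrafish embryos mdm2, cdkn1a and ccng1 are commonly used as its readouts. Much of p53 control acts on the protein, which these data do not measure.

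Total depth in corrected reads was 26384466 for control larvae, 41105619 for HRAS and 21944303 for NICD. Corrected reads are the unique reads of a gene plus a share of the reads that match several transcripts. A fold is the ratio of corrected reads scaled to library size, and the bracketed range after it is a 95% interval that covers counting error only. A gene was called higher or lower when both libraries together held at least 50 of its reads, they differed by at least 2-fold and the interval excluded 1. RNA of the larval tissues was present: none of the markers of endothelium, red cells, photoreceptors, neurons or skeletal muscle was at 0 in any library, and among those of neutrophils and macrophages 1 identifier named MPEG1 was at 0 in control and NICD and had 2 reads in HRAS.

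In the HRAS library 2 of the 10 p53 target genes were called higher than in the control, bbc3 and SESN1, and 0 were called lower, where 6.09% of all 20873 genes were called higher and 4.14% lower. A further 3 stood between 1.5-fold and 2-fold (mdm2, GADD45A and the GADD45B identifier ENSDARG00000013576), which made 5 of 10 at or above 1.5-fold, beside 13.0% of all genes, and 0 stood at or under the inverse of 1.5, beside 10.9%. The median log2 ratio of the 10 was 0.54, beside 0.00 over all genes. The ratios were uneven within the set: the classical arrest gene cdkn1a, the abundant CCNG1 and PHLDA3 stood between 0.947-fold and 1.12-fold. In the NICD library 0 of 10 were called in either direction, beside 3.56% of all 20061 genes called higher and 3.12% lower, and the median log2 ratio was 0.25, beside 0.03 over all genes. At the 1.5-fold limit 2 of 10 were higher, bbc3 and SESN1, beside 10.6%, and 0 lower, beside 7.86%. Both comparisons use the same control library.

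**Figure D1:**
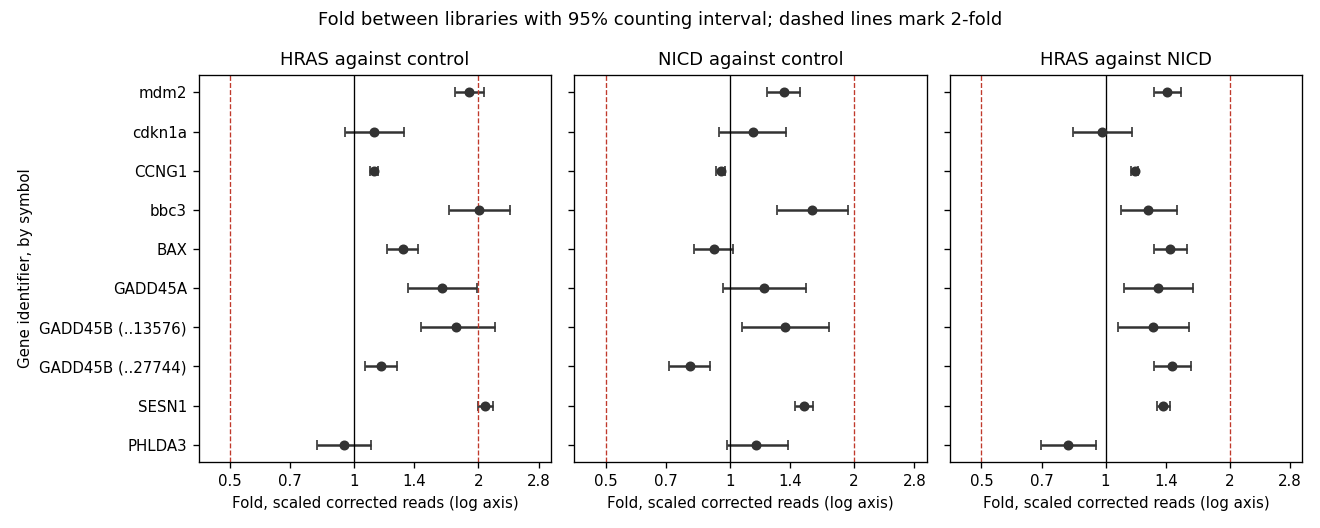
Fold of each p53 target gene (points, log axis) with its 95% counting interval (bars) in HRAS against control, NICD against control and HRAS against NICD; dashed lines mark 2-fold in either direction. SESN1 and bbc3 sit at 2.08 and 2.01 in the left panel, and no gene reaches 2-fold in the other panels.

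The levels per transcript length spanned a wide range. In deposited RPKM, CCNG1 was the highest of the 10 in every library, at 291 in control larvae, 326 in HRAS and 279 in NICD, and bbc3 the lowest, at 1.8, 3.65 and 2.88. The ratio of highest to lowest was 161 in control larvae, 89.5 in HRAS and 96.9 in NICD. CCNG1 alone held 69.8%, 59.5% and 62.8% of the corrected reads of the set. The summed level was 813 scaled CPM in control larvae, 1065 in HRAS and 858 in NICD. Within it CCNG1 stood at 567, 634 and 539, and SESN1, which differed by more scaled CPM in both comparisons, at 118, 246 and 179.

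**Figure D2:**
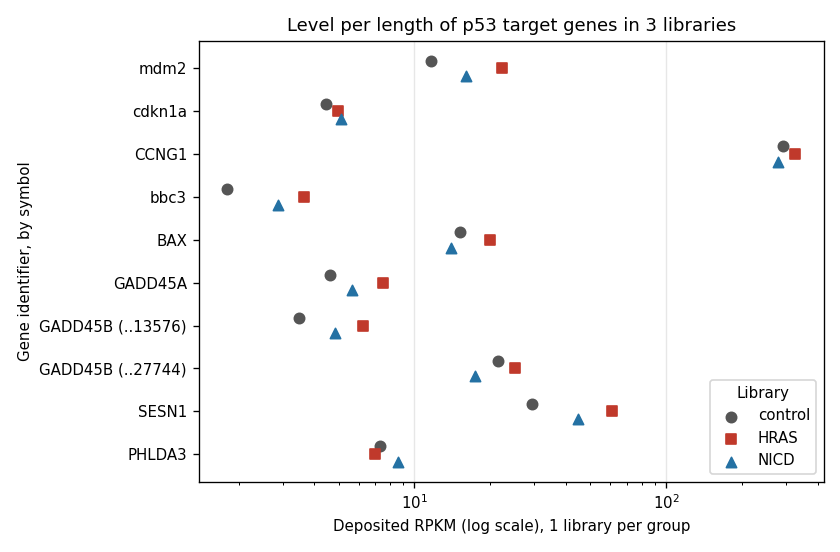
Deposited RPKM (log axis) of each p53 target gene in the control, HRAS and NICD libraries, 1 point per library. CCNG1 lies near 300 in all libraries, and bbc3 lies between 1.8 and 3.65.

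The feedback genes mdm2 and CCNG1 differed in pattern. The mdm2 gene (ENSDARG00000033443, 8 transcripts) had 842 corrected reads in control larvae, 2511 in HRAS and 957 in NICD, or 11.7, 22.4 and 16.0 RPKM. It was thus highest in HRAS and lowest in the control, with a fold of 1.90 [1.76 to 2.06] in HRAS and 1.35 [1.23 to 1.48] in NICD against the control, and no interval between neighbouring libraries included 1. Only 17.4% of its reads were unique; on these, its fold was 2.02 [1.66 to 2.48] in HRAS, past the 2-fold limit, and 1.75 [1.4 to 2.20] in NICD. CCNG1 (ENSDARG00000076667) encodes cyclin G1, which in mammalian cells recruits a phosphatase to Mdm2. It had 14881, 26046 and 11888 corrected reads in control, HRAS and NICD, and a fold of 1.12 [1.09 to 1.14] in HRAS and 0.95 [0.927 to 0.973] in NICD. At this depth the counting intervals exclude 1 on both sides, although the differences are small.

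Among arrest genes, cdkn1a (ENSDARG00000076554) encodes p21, an inhibitor of cyclin-dependent kinases that mediates p53-driven G1 arrest. It had 230 corrected reads in control larvae, 403 in HRAS and 220 in NICD, or 4.44, 4.99 and 5.11 RPKM. The libraries lay close together: the fold was 1.12 [0.949 to 1.32] in HRAS and 1.14 [0.941 to 1.37] in NICD. The upper bounds of 1.32 and 1.37 cover counting error only, so a larger difference between the groups is not excluded. On unique reads the upper bounds were 1.62 and 1.64.

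The GADD45 proteins are small stress-induced proteins that bind cell cycle regulators and, in mammals, activate a kinase upstream of p38. GADD45A (ENSDARG00000043581) had 152, 388 and 155 reads in control, HRAS and NICD, all of them unique. It stood at 1.63-fold [1.35 to 1.98] in HRAS, and in NICD its interval included 1 (1.21 [0.963 to 1.53]). Against the control the 2 GADD45B identifiers both stood above 1 in HRAS on corrected reads, and on different sides of 1 in NICD. ENSDARG00000013576 had 128, 356 and 147 corrected reads, a fold of 1.77 [1.45 to 2.19] in HRAS and 1.36 [1.07 to 1.74] in NICD. ENSDARG00000027744, the more abundant at 21.5 RPKM in the control against 3.49 for the other, had 734, 1332 and 493 corrected reads, and stood at 1.16 [1.06 to 1.27] in HRAS and 0.799 [0.711 to 0.896] in NICD. Unique reads made up 43.3% of the former and 33.3% of the latter. On unique reads the latter stood at 1.09 [0.935 to 1.28] in HRAS, an interval that includes 1, and at 0.798 [0.653 to 0.973] in NICD.

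Among genes that limit growth signals, SESN1 (ENSDARG00000020693) encodes sestrin 1, which in mammalian cells restrains the growth kinase complex mTORC1. It had 3102 corrected reads in control larvae, 10129 in HRAS and 3947 in NICD, or 29.2, 61.2 and 44.7 RPKM. All 3 libraries were apart, with a fold of 2.08 [2.0 to 2.17] in HRAS and 1.51 [1.44 to 1.59] in NICD. These values rest on reads matching several transcripts: only 64, 173 and 79 reads, 1.84% of the total, were unique, and on them the fold was 1.73 [1.30 to 2.35] in HRAS, which would not be called, and 1.46 [1.04 to 2.06] in NICD. PHLDA3 (ENSDARG00000037804) encodes a protein that in mammalian cells competes with the kinase Akt for membrane lipids. It had 287, 426 and 281 reads, all unique, and was the member with the lowest ratio in HRAS, at 0.947 [0.814 to 1.1], beside 1.16 [0.984 to 1.38] in NICD.

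The apoptosis genes were bbc3 and BAX. The bbc3 gene (ENSDARG00000069282) encodes Puma, a BH3-only protein that frees Bax and its relatives to act. It had 180 corrected reads in control larvae, 567 in HRAS and 239 in NICD, or 1.8, 3.65 and 2.88 RPKM. The control was lowest and HRAS highest, at 2.01-fold [1.70 to 2.39] in HRAS and 1.58-fold [1.30 to 1.93] in NICD against the control. On unique reads, 70.3% of its total, these folds were 2.05 [1.68 to 2.53] and 1.54 [1.21 to 1.96]. The HRAS fold lies at the 2-fold limit, and the call is lost with DESeq2 size factors, with upper quartile scaling and with 5 reads added to each library. BAX (ENSDARG00000020623) encodes the protein that opens pores in the outer mitochondrial membrane. It had 795, 1631 and 610 corrected reads, with a fold of 1.31 [1.2 to 1.43] in HRAS and 0.913 [0.820 to 1.02] in NICD.

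**Figure D3:**
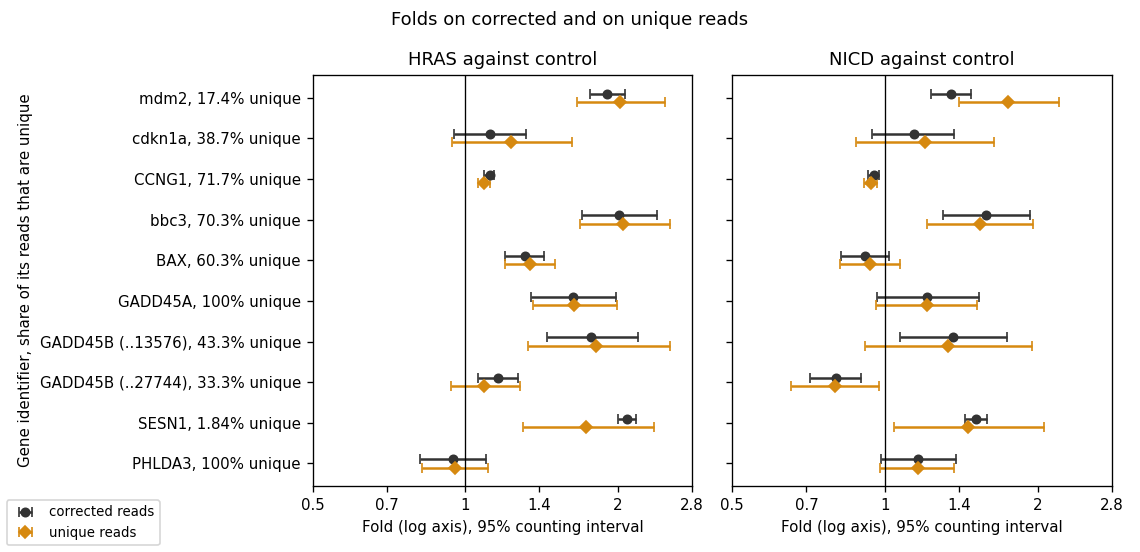
Fold against control (log axis) of each p53 target gene on corrected reads (circles) and on unique reads (diamonds), with 95% counting intervals (bars); row labels give the share of unique reads. The values move most for SESN1 in HRAS (2.08 and 1.73) and mdm2 in NICD (1.35 and 1.75).

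In the order of the libraries, HRAS was highest for 8 of the 10 genes and NICD for 2 (cdkn1a and PHLDA3), and the control was highest for 0. The control was lowest for 6, NICD for 3 (CCNG1, BAX and the GADD45B identifier ENSDARG00000027744) and HRAS for 1 (PHLDA3). These ranks were not counted over all genes, so the order is not shown to be particular to this set. In the HRAS against control comparison the interval lay above 1 for 8 of 10 genes, beside 31.5% of all genes, and below 1 for 0, beside 30.8%. In NICD against control it lay above 1 for 4, beside 30.8%, and below 1 for 2, beside 25.8%. How often an interval excludes 1 depends on the read number, and all genes here include many with fewer reads than these 10.

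Set against each other, HRAS and NICD, which carry the same driver, gave calls for 0 of the 10 genes in either direction, beside 5.15% of 20856 genes higher and 6.19% lower in HRAS, and at 1.5-fold it was again 0 of 10, beside 11.1% higher and 14.2% lower. The median log2 ratio was 0.40, beside 0.01 over all genes. The largest folds in HRAS against NICD were those of the GADD45B identifier ENSDARG00000027744, at 1.45 [1.31 to 1.61], BAX, at 1.43 [1.31 to 1.58], and mdm2, at 1.41 [1.31 to 1.52]. SESN1 stood at 1.38 [1.33 to 1.43] and bbc3 at 1.27 [1.09 to 1.49]. The interval lay above 1 for 8 genes, beside 32.2% of all genes, and below 1 for 1, PHLDA3, at 0.813 [0.698 to 0.949], beside 31.0%. For cdkn1a the fold was 0.982 [0.832 to 1.16]. On unique reads the intervals of mdm2, 0.974 to 1.38, and SESN1, 0.907 to 1.57, included 1. The median log2 ratio of the 10 on unique reads was 0.33. On corrected reads the median was 0.28 over 13 reference genes and 0.30 over 14 close relatives of the set. It was 0.05 over 25 genes of the p53 family and its regulators, and 0.12 over 57 other p53 targets.

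The close relatives of these genes were read beside them. Of 15 such identifiers 2 were called higher in HRAS against control and 0 lower, beside 6.09% and 4.14% of all genes. The median log2 ratio of the 15 was 0.13. Of 14 measured for NICD 0 were called, beside 3.56% of all genes higher and 3.12% lower. The median of the 14 was -0.03. Another sestrin gene, sesn2, which responds to amino acid and other stress in mammals, had 223, 864 and 283 corrected reads in control, HRAS and NICD, a fold of 2.47 [2.13 to 2.88] in HRAS and 1.51 [1.26 to 1.81] in NICD. The remaining sestrin, sesn3, stood at 1.43 [1.34 to 1.53] in HRAS and 0.979 [0.902 to 1.06] in NICD. PHLDA2, a relative of PHLDA3, had 353, 1154 and 461 reads and stood at 2.08 [1.85 to 2.36] and 1.55 [1.35 to 1.79]. CCNG2, the other cyclin G gene, stood at 1.27 [1.19 to 1.35] and 0.870 [0.802 to 0.944], and baxb at 1.03 [0.766 to 1.39] and 1.38 [1.0 to 1.90]. Of 2 identifiers named GADD45G, ENSDARG00000019417, with unique reads only, stood at 1.1 [0.997 to 1.21] and 0.848 [0.753 to 0.954], while ENSDARG00000016725, with no unique read, stood at 0.763 [0.666 to 0.875] and 0.724 [0.613 to 0.851].

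Of 26 identifiers of the p53 family and its regulators 0 were called in HRAS against control. Over all genes 6.09% were called higher and 4.14% lower. The median log2 ratio of the 26 was 0.03. Of 25 measured in NICD 0 were called, beside 3.56% of all genes higher and 3.12% lower. The median of the 25 was -0.09. MDM4, a relative of mdm2 that also restrains p53, had 1513, 2355 and 1351 reads, all unique, and stood at 0.993 [0.931 to 1.06] and 1.06 [0.986 to 1.14]. The gene named cdkn2a/b, whose mammalian counterparts act in oncogene-induced arrest, had 14, 43 and 2 reads, and its fold in HRAS, 1.91 [1.05 to 3.88], was not called.

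Other known p53 targets, taken from 3 lists of arrest and repair, apoptosis, and metabolism, had a median nearer to that of all genes. Of 57 measured in HRAS against control, 5 were called higher and 1 lower, beside 6.09% and 4.14% of all genes, with a median log2 ratio of 0.19. The higher ones were both identifiers named PLK2, a stress-induced kinase, at 3.15 [2.88 to 3.45] and 2.89 [2.64 to 3.17], the antiproliferative gene BTG2, at 2.38 [2.21 to 2.56], the death receptor gene fas, at 2.15 [1.53 to 3.14] on 42 and 143 reads, and sesn2. The lower one was a glutaminase gene named GLS2 (ENSDARG00000069095), at 0.400 [0.332 to 0.480], and 2.94% of its reads were unique. On these its interval in HRAS, 0.0643 to 1.02, included 1. The other identifier named GLS2, ENSDARG00000002917, went the other way, at 1.47 [1.04 to 2.13] in HRAS, and was not called. In NICD 0 of 57 were called higher and 2 lower, beside 3.56% and 3.12% of all genes, and the median was 0.01. The lower ones were STEAP3, a metalloreductase gene, at 0.433 [0.253 to 0.698], and gpx1a, a glutathione peroxidase gene, at 0.469 [0.421 to 0.521]. The paralog gpx1b went the other way, at 1.82 [1.49 to 2.25] in NICD, and was not called. Only 6.83% of the STEAP3 reads were unique, and on these its interval in NICD, 0.00751 to 4.91, included 1. The PLK2 identifiers stood at 1.0 and 0.867 in NICD. The apoptosis list had the highest median of the 3 in HRAS, 0.40 over 14 genes, beside 0.01 over 21 genes of arrest and repair and 0.08 over 22 genes of metabolism. In NICD its median was the lowest of the 3, at -0.08, beside 0.00 for arrest and repair and 0.26 for metabolism.

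Of the Bcl2 family and caspases, through which Puma and Bax act, 1 of 24 genes was called higher in HRAS and 0 lower. The shares of all genes were 6.09% and 4.14%, and the median log2 ratio of the 24 was 0.27. The gene called was mcl1a, an inhibitor of apoptosis, at 2.08 [1.96 to 2.22]. CASP9, the caspase activated downstream of mitochondrial pores, stood at 1.85 [1.58 to 2.16] in HRAS and 1.15 [0.946 to 1.39] in NICD. In NICD 0 of 24 were called, beside 3.56% of all genes higher and 3.12% lower, and the median of the 24 was 0.12.

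Genes of the integrated and immediate stress response, which other stress pathways induce and some of which p53 can also induce, had a higher median than the p53 targets in HRAS. Of 28 such genes, 13 were called higher in HRAS and 0 lower, beside 6.09% and 4.14% of all genes, with a median log2 ratio of 0.84. In NICD 3 were called higher and 0 lower, beside 3.56% and 3.12%, with a median of 0.29. The lists overlap: sesn2 is counted here, among the close relatives and among the other p53 targets. FOS stood at 4.0 [3.54 to 4.55] in HRAS, JUNB at 3.81 [3.33 to 4.4] and ATF3 at 2.71 [2.41 to 3.07], all genes of AP-1 or related transcription factors that MAP kinases induce. JUNB and ATF3 were also called higher in NICD, at 2.55 [2.18 to 2.99] and 2.16 [1.89 to 2.47]. So was the TXNIP identifier ENSDARG00000036107, at 2.18 [2.1 to 2.27], with 3949, 14283 and 7238 reads in control, HRAS and NICD. TXNIP is a regulator of redox and glucose uptake. The other identifier named TXNIP was not called in NICD. On the list of senescence and growth arrest, 1 of 12 was called higher in HRAS and 0 lower, beside 6.09% and 4.14% of all genes. The median log2 ratio of the 12 was 0.22. In NICD 1 of 11 was called higher and 0 lower, beside 3.56% and 3.12%, with a median of -0.03. The gene called in both was igfbp1b, an IGF-binding protein gene, at 10.3 [7.97 to 13.8] in HRAS and 3.40 [2.53 to 4.70] in NICD.

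**Figure D4:**
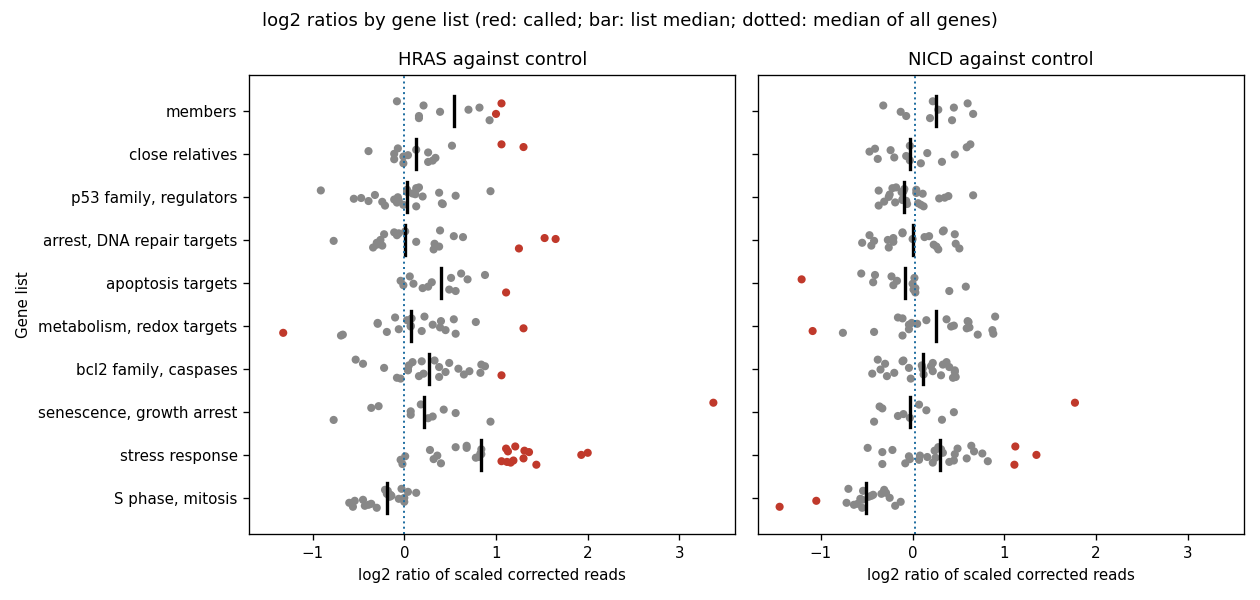
log2 ratios of scaled corrected reads in HRAS and NICD against control, 1 point per gene whose reads in both libraries reach 50; red points were called, black bars are list medians and the dotted line is the median of all genes. The 10 p53 targets (top row, median 0.54) lie below the stress response list (median 0.84) in HRAS, and both panels share 1 control library.

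The genes on the lists whose pair of ratios lay nearest to the median pair of the 10 p53 targets (0.54 in HRAS and 0.25 in NICD on the log2 scale) were HMOX1, at 0.56 and 0.28, actb2, at 0.50 and 0.28, and xiap, at 0.49 and 0.22. Nearness is the Euclidean distance over 3 libraries among 207 genes with at least 200 reads in each, and with so few libraries many genes lie close. The actin gene actb2 is used as a reference gene, but over the 13 reference genes measured the HRAS median was 0.07 and the NICD median -0.05 on the log2 scale.

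RNA of cell type markers also differed in level between the libraries, which does not tell cell number from RNA per cell. Over all genes 6.09% were called higher and 4.14% lower in HRAS against control, and 3.56% and 3.12% in NICD against control. Endothelial markers summed to 184 scaled CPM in control larvae, 628 in HRAS and 205 in NICD. Of these 12 of 13 were called higher and 1 lower in HRAS against control, and 0 of 13 were called in NICD. Neutrophil and macrophage markers summed to 205, 442 and 343, with 8 of 21 called higher and 0 lower in HRAS, and 3 of 20 higher and 1 lower in NICD. Red cell markers summed to 1958, 2589 and 1333, with 5 of 13 called higher and 0 lower in HRAS. In NICD 0 of 13 red cell markers were called, and their median log2 ratio was -0.01. The abundant globin gene hbae3 weighs on this sum, with 36443 corrected reads in control larvae and 17011 in NICD, a fold of 0.555. Photoreceptor markers summed to 2842, 651 and 894, with 18 of 21 called lower in HRAS and 16 of 21 in NICD, and 0 higher in either. Neuron markers summed to 2134, 1451 and 2008, and skeletal muscle markers summed to 41060, 40930 and 40910. Of 16 neuron markers 0 were called in HRAS, and 1 was called higher and 0 lower in NICD. Their median log2 ratio was -0.55 in HRAS, where the interval lay below 1 for 15 of 16, beside 30.8% of all genes. It lay above 1 for 0, beside 31.5%. In NICD the median was 0.1, with intervals above 1 for 8, beside 30.8%, and below 1 for 6, beside 25.8%. Of 12 skeletal muscle markers 0 were called in either. Their near-equal sums hold abundant genes that differed in opposite directions, such as atp2a1 at 1.52 and myhz2 at 0.521 in NICD against control. There the interval lay above 1 for 5 of the 12, beside 30.8% of all genes, and below 1 for 7, beside 25.8%. The part of these cell types in the ratios of the p53 target genes was not tested.

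**Figure D5:**
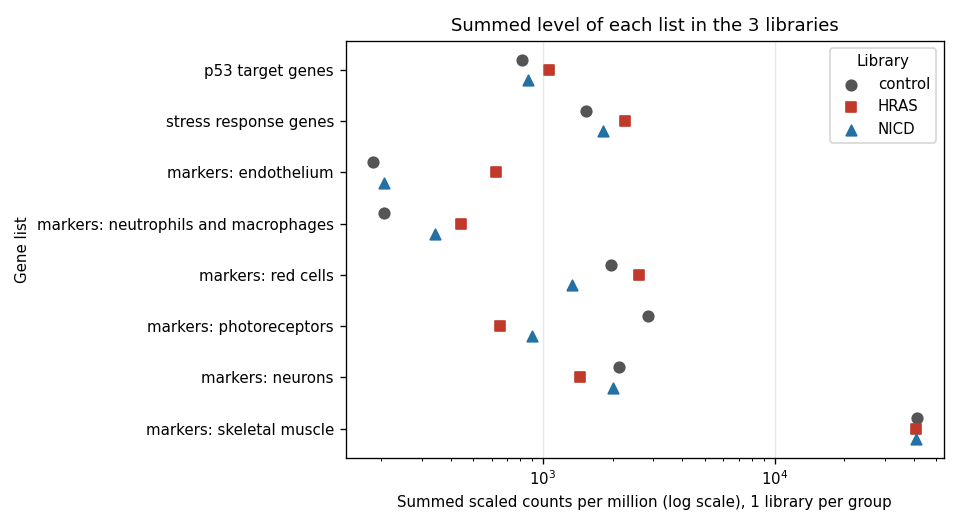
Summed scaled CPM (log axis) of the p53 target genes, the stress response genes and the markers of 6 cell types in each library, 1 point per library. Endothelial markers lie at 628 in HRAS against 184 in the control, and the p53 targets at 1065 against 813.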

How the data were processed

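The extraction started from 10 ug of total RNA per the labels' protocols. Reads were assigned to transcripts of Ensembl release 63 for Zv9 by CLC bio Assembly Cell 3.2, per the series' design text, and the submitters' processing notes list CASAVA 1.8. Mapping settings and strand use: not given in the sources used here. For each gene the authors deposited counts of unique reads and of reads that are not unique, corrected total reads, which are an expected count in whole numbers, and RPKM, per the file headers. Deposited RPKM of the p53 target genes was within 0.0212% of the value recomputed from corrected reads, length of the longest transcript and the sum over genes.

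Symbols were found for 19635 of 27882 identifiers in a name table. TMM factors (edgeR 4.0.16, R 4.3.3) were 0.994, 1.00 and 1.01 for control, HRAS and NICD. Ratios were taken after adding 0.5 reads, with a Clopper-Pearson interval of 95% on the conditional binomial share (scipy 1.17.1). Intervals and floors reflect counting error alone, and PCR copies were not removed by molecular identifiers. The floor of 3 reads equals 0.114 CPM for control, 0.073 CPM for HRAS and 0.137 CPM for NICD. A read matching several transcripts of its own gene is also non-unique. No sequences or coordinates were used.

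On simulated counts the size rule found 50 of 50 genes with a 2.5-fold change for HRAS against control, with 3 calls among 20665 unchanged genes. For NICD against control it found 50 of 50, with 11 calls among 19856. For HRAS against NICD it found 48 of 50, with 17 among 20672. The counts were drawn with counting error only, and the changed genes came from those with more reads than the rule requires. The simulated increases were 1.2-fold, 2.5-fold and 4-fold. Detection near the 2-fold limit, where bbc3 and SESN1 lie, was thus not simulated. Variation between larvae cannot be estimated with 1 library a group. The simulation therefore does not show how often such variation alone would give a call. The alternatives changed the scaling (total reads, DESeq2 1.42.0, upper quartile), the quantity (deposited RPKM, unique reads, counts thinned to the smallest library), the read minimum (10, 200, none), the reads added (5) or the fold limit (1.5). Genes, lists and rules were chosen with earlier results of these data known. From the other 16 lists the text names genes among the 4 largest changes of a comparison, relatives of the p53 target genes and the 3 genes nearest in pattern. MDM4, CASP9, PCNA and cdkn2a/b were also named for their place in the pathway, after their values were seen. Of the list names, 59 were not matched. Some identifiers, such as sesn2 and PCNA, are on several lists and were counted in each. Some genes of the lists are not reported here and were left out of the list counts.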

Additional observations from a re-analysis of the deposited data

Results flagged for a closer look

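For 2 of the 10 p53 target genes the HRAS and NICD libraries lay on opposite sides of the control with counting intervals that exclude 1. The difference was not tested across replicates, since each group has 1 library. The share of all genes with such a pair of libraries was not computed. In HRAS against control the interval lay above 1 for 31.5% of all genes and below 1 for 30.8%. In NICD against control the shares were 30.8% and 25.8%. On the log2 scale CCNG1 stood at 0.16 for HRAS and -0.07 for NICD relative to the control. The GADD45B identifier ENSDARG00000027744 stood at 0.21 for HRAS and -0.32 for NICD. Its values on unique reads were 0.13 and -0.32, and the former has an interval that includes a ratio of 1.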

How the results depend on the processing

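In HRAS against control the p53 target genes called higher numbered 1, SESN1, under DESeq2 size factors, upper quartile scaling or 5 reads added, where bbc3 fell just under 2-fold, and 5 under the 1.5-fold limit. On unique reads they numbered 2, mdm2 and bbc3, and SESN1 was not called. In NICD they numbered 2 under the 1.5-fold limit and 0 under the others, and in HRAS against NICD 0 under all. Their median log2 ratio moved by less than the typical counting interval under all alternatives run. Of 210 log2 ratios of p53 target genes under alternatives, 205 stayed within the counting interval, and the 5 that did not were all on unique reads (CCNG1 and SESN1 in HRAS, mdm2 in NICD, mdm2 and SESN1 between the transgenic libraries). The median of all genes moved by less than 0.1 on the log2 scale.

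Over all genes, higher and lower calls in HRAS against control numbered 669 and 452 with a minimum of 200 reads, 1933 and 1550 with none, and 2709 and 2274 at 1.5-fold, with 1346 lower at a minimum of 10. In NICD against control they were 258 and 289, 1457 and 1139, and 2133 and 1577, with 1293 and 1060 at a minimum of 10. In HRAS against NICD they were 521 and 700, 1655 and 2095, and 2310 and 2957, with 1629 higher at a minimum of 10. The minimum and the fold limit set these counts by construction. No paired analysis was possible because each group has 1 library. Depth limits cdkn1a, bbc3, GADD45A and the GADD45B identifier ENSDARG00000013576 most, each with under 250 corrected reads in the control.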

Other observations

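Genes of DNA replication and mitosis were lower in median in both transgenic libraries, which share the control. A link to the p53 target genes was not tested. In HRAS against control 0 of 20 were called, beside 6.09% of all genes higher and 4.14% lower. The median log2 ratio of the 20 was -0.18, and the values ran from -0.60 to 0.13. In NICD 2 of 20 were called lower and 0 higher, beside 3.12% and 3.56% of all genes, and the list median was -0.51. The lower ones were MCM3, a subunit of the replicative helicase, at 0.367 [0.328 to 0.408], and 1 of 2 identifiers named RRM2. RRM2 is a subunit of ribonucleotide reductase, and this identifier stood at 0.483 [0.435 to 0.535]. PCNA, the sliding clamp of DNA polymerase, had 6913, 8774 and 3958 reads in control, HRAS and NICD, all unique, and stood at 0.810 [0.785 to 0.836] in HRAS and 0.681 [0.655 to 0.708] in NICD, neither called.

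Among p53 targets of metabolism and redox control, tigarb, a fructose bisphosphatase gene, stood at 0.385 [0.286 to 0.516] in HRAS against NICD on 81 and 113 reads, and gpx1a at 2.43 [2.21 to 2.69]. The paralog gpx1b stood at 0.751 [0.634 to 0.891] and was not called. In the same comparison 4 of 14 apoptosis targets were called higher and 0 lower, beside 5.15% and 6.19% of all genes. The 4 were STEAP3 at 3.71 [2.43 to 6.13], bcl2l11, which encodes the BH3-only protein Bim, at 2.45 [1.56 to 4.14], the autophagy gene DRAM1 at 2.28 [1.38 to 4.13] and fas at 2.11 [1.47 to 3.16]. None of the 4 had more than 162 reads in a library. Only 6.83% of the STEAP3 reads were unique, and on these its interval was 1.06 to 300.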
